A study of Mus musculus with 4 samples.

Results

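IgM and IgG plasma cells were a small class of the mouse colon, 105 of 20428 kept leukocyte barcodes, beside 1868 plasma cells that made IgA. Plasma cells are the antibody-secreting end stage of the B cell lineage. A plasma cell makes 1 heavy-chain class, set by which constant gene of the heavy-chain locus follows its rearranged variable region. IgA, carried across the epithelium with the joining chain, is the usual class of the gut wall, whereas IgM is the unswitched class and the IgG subclasses arise by switching and are better known from spleen, bone marrow and inflamed tissue.

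The cells were part of a sort for CD45, which marks leukocytes, from the whole colon of wild-type (WT) C57BL/6 mice, profiled on the 10x Genomics droplet platform. The stress group (2 libraries) had been restrained daily for 7 days, a rodent model of psychological stress. The control group (2 libraries) had the control treatment, and neither group carried a transgene or a deletion by the labels. Whether each library stands for its own animal or for a pool is not in the labels, so every p-value measures only the spread between these 4 libraries, which may be technical.

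Members were chosen by their own transcripts, counted as unique molecular identifiers (UMIs). A barcode was kept with at least 500 UMIs, at least 200 genes and at most 10% mitochondrial UMIs. A member had the joining chain gene Jchain at 0.5% or more of its UMIs, 3 or more UMIs of the secretory and plasma cell genes Mzb1, Derl3, Tnfrsf17 and Txndc5 together, at most 1 UMI of the T cell genes Cd3e, Cd3d and Cd3g, and at least as many UMIs of Ighm, Ighg1, Ighg2b, Ighg2c and Ighg3 together as of Igha. The rule gave 60 and 27 members in stress libraries 1 and 2, and 10 and 8 in control libraries 1 and 2. The same rule with more Igha gave 947 and 618 IgA cells in the stress libraries, and 187 and 116 in the control libraries. Levels of Jchain, the 4 secretory genes, the Cd3 genes and the 6 heavy-chain genes are therefore described without a test. Shares of members by leading heavy-chain gene were compared over libraries.

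Few cells lay close to the limits, though the Jchain limit alone left out 1244 kept cells. These met the other conditions and held an IgM or IgG UMI. Just inside the isotype limit lay a control 2 cell with 4624 IgM plus IgG UMIs against 4500 of Igha, and just outside it a stress 1 cell with 2102 against 2281. At the Jchain limit the nearest members had 0.538, 0.868 and 1.10% of their UMIs from Jchain, and the nearest cells left out had 0.398, 0.381 and 0.337%.

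The members held 633450 and 496109 UMIs in the stress libraries, and 173589 and 169522 in the control libraries, with medians of 9504.5, 17215, 18753 and 17889 UMIs per cell. The IgA cells held between 2026274 and 15402922 UMIs per library. Libraries shared between 3 and 19 barcodes in each pair, and no member's barcode recurred in another library. A doublet caller marked 15 of the 105 members, 14 of them in stress 1. Its automatic threshold marked under 0.5% of every library and so had not worked; the barcodes of highest score were marked up to the expected share.

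Markers outside the rule fitted plasma cells. Xbp1, the transcription factor that drives the secretory programme, had 1089 and 963 CPM (UMIs per 1000000 UMIs of the members of a library) in stress members, against 1221 and 1144 in control members. Prdm1, which encodes Blimp-1, had 75.8 and 80.6 in stress members, against 34.6 and 53.1 in control members. Neutrophil markers were at 0 in all 4 libraries (4 of 4 genes), 5 of 11 myeloid genes and 3 of 5 epithelial genes were at 0, and fibroblast genes appeared in stress 1 alone, at 103 CPM. The 11 myeloid genes summed to 229 and 389 CPM in stress members, against 709 and 195 in control members, and the 5 epithelial genes to 69.5 and 90.7 against 51.8 and 88.5. B cell markers went in part against the label: Ms4a1, which encodes the B cell surface protein CD20, had 189 and 107 CPM in stress members against 46.1 and 11.8 in control members.

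The IgG subclasses differ most in the hinge, the short exon between the antigen-binding arms and the tail, and the sequences are shown because the subclass of a member was read from these genes. They are from GRCm38 (GENCODE vM21), minus strand of chromosome 12, 5′ to 3′, with in-frame cysteine codons in capitals, the residues that can bridge the paired heavy chains. The exons lie at chr12:113329844-113329882 (Ighg1), chr12:113307261-113307326 (Ighg2b), chr12:113288263-113288325 (Ighg2c) and chr12:113360529-113360576 (Ighg3).
Ighg1: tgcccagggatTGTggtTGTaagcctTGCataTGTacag
Ighg2b: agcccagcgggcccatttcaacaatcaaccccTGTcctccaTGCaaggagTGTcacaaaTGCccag
Ighg2c: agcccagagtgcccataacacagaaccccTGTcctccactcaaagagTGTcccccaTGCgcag
Ighg3: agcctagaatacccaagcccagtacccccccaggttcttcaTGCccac
The hinges run to 39, 66, 63 and 48 bases in this order and hold 4, 4, 3 and 1 cysteine codons. Of all 50-base windows in the constant exons, 56 of 1065 of Ighg2b (5.26%) recur exactly in Ighg2c (56 of 1165, 4.81%), and no other pair among Ighm, Ighg1, Ighg2b, Ighg2c, Ighg3 and Igha shares one. A read from the shared stretch cannot be told between Ighg2b and Ighg2c by its sequence alone, and how such reads were counted was not examined.

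Most members were IgG cells, and most of those were IgG2b. Ighg2b led in 53 of 105, Ighm in 27, Ighg1 in 12, Ighg2c in 12 and Ighg3 in 1. Single cells were clear in class: the leading gene took at least 95% of the heavy-chain UMIs in 94 of 105 members, and had a median of 1324 UMIs (32 to 13703), or 11.9% of all UMIs of the cell. Among the 53 Ighg2b-led cells, 45 had no Ighg2c UMI and the highest Ighg2c share of the UMIs of both genes was 2.46%. Of these 53, 1 cell from stress 2 held 90 Ighm and 16 Igha UMIs beside 123 of Ighg2b. Of the 12 Ighg2c-led cells, 8 had no Ighg2b UMI, and the highest Ighg2b share was 9.80%. In cells of a T cell gate (3 or more Cd3 UMIs), which should lack immunoglobulin, an Igha UMI was found in 75.9 and 95.7% of cells in the stress libraries and 42.2 and 35.3% in the control libraries, and an Ighg2b UMI in 2.84 and 5.26% against 2.80 and 0.502%.

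**Figure D1:**
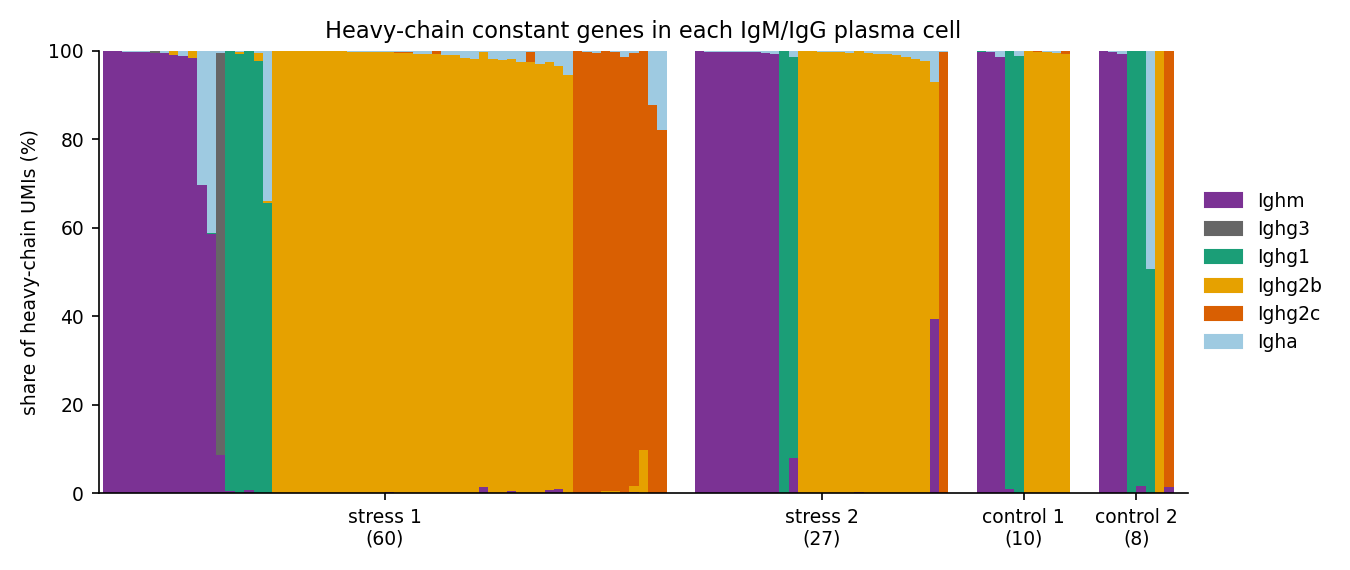
Each vertical bar is 1 member and gives the share (%) of its heavy-chain UMIs from each constant gene, with members grouped by library (number of members in brackets). In 94 of 105 bars 1 gene holds at least 95%, and the other 11 bars are mixed.

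The makeup by leading gene varied between libraries. Ighg2b led in 32 of 60 and 15 of 27 stress members, against 5 of 10 and 1 of 8 control members. Ighg1 led in 8.33 and 7.41% of stress members, against 20 and 37.5% of control members. The leading gene was read from genes that the rule used, so these shares are a description. The groups did not overlap for Ighg1 or for Ighg2b, and overlapped for Ighm and Ighg2c. The 2-sided exact permutation p over libraries was 0.333 for Ighg1 and for Ighg2b. It is the smallest that 2 against 2 libraries can give, so this test could not pass. The 2 Ighg1-led cells of control 1 shared a pair of V segments, Ighv1-47 with Igkv4-61. The 95% Clopper-Pearson intervals for Ighg1, which cover counting error only, were 2.76 to 18.4% and 0.910 to 24.3% in the stress libraries. They were 2.52 to 55.6% and 8.52 to 75.5% in the control libraries. IgM-led cells made 20 and 33.3% of stress members, against 30 and 37.5% of control members.

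Jchain, which the rule used, was lower in the members than in IgA cells. Its median share per cell was 3.46 and 3.53% in stress members and 4.04 and 5.94% in control members, against 7.39 and 6.97% in stress IgA cells and 7.52 and 7.15% in control IgA cells. By leading gene its median was 5.36% in IgM cells, 4.62% in IgG1 cells, 3.24% in IgG2b cells and 3.06% in IgG2c cells.

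Light chains, which the rule did not use, were also clear: 1 light-chain type took at least 95% of light-chain UMIs in 104 of 105 members. Lambda led in 3 of 60 and 6 of 27 stress members, against 0 of 10 and 0 of 8 control members. With no lambda cell, control 1 allows a share of up to 30.8% and control 2 one of up to 36.9% (upper Clopper-Pearson limits). In IgA cells lambda led in 4.75 and 3.56% in stress against 6.95 and 5.17% in control.

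Variable segments were varied. A heavy-chain V segment could be called (the leading segment with 2 or more UMIs and more than 50% of V UMIs) in 76 members, with 42 different segments. A light-chain segment could be called in 92 members, with 34 different segments. Segments of the Ighv1 family led in 50 members. Ighv1-64 led in 7, Ighv1-39 in 5, Ighv1-9 in 4, and Ighv1-47 and Ighv1-53 in 3 each. Among light-chain segments Igkv1-110 led in 10, Iglv1 in 9, Igkv10-96 in 7, and Igkv1-117 and Igkv6-15 in 6 each.

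Of 69 members with both segments called, 11 shared their pair with another member of the same library and heavy-chain gene, in 5 pairs. Ighv3-4 with Igkv1-110 occurred in 3 IgM cells of stress 2, and the other four pairs in 2 cells each. Junctions were not read, so cells with 1 pair of segments need not come from 1 clone.

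Members were a larger share of all kept leukocytes in both stress libraries than in both control libraries, and as a share of plasma cells the groups overlapped. They made 0.721 and 0.654% of kept cells in the stress libraries, against 0.393 and 0.147% in the control libraries (0.688 ± 0.0474% against 0.270 ± 0.174%, SD, n = 2 each; 2-sided exact permutation p = 0.333). The groups did not overlap. IgA cells did the same, at 11.4 and 15.0% against 7.34 and 2.13%. Of all plasma cells, members made 5.96 and 4.19% in the stress libraries, against 5.08 and 6.45% in the control libraries (exact permutation p = 0.667). The share of kept cells depends on members with B cell transcripts: without members holding 3 or more B cell UMIs its difference was 0.148 percentage points, against 0.418 with them, and stress 2, at 0.339%, then lay below control 1, at 0.353%. The shares of plasma cells without them were 3.86 and 2.22% in the stress libraries, against 4.59 and 6.45% in the control libraries, which no longer overlapped.

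**Figure D2:**
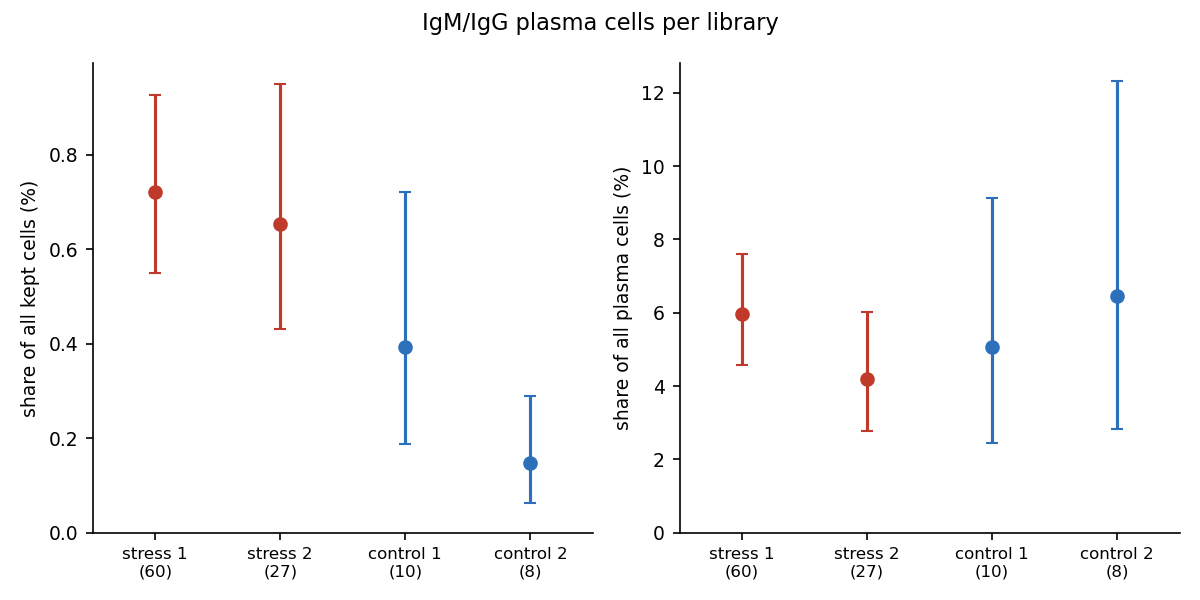
Members as a share (%) of all kept cells, left, and of all plasma cells, right, in each library (number of members in brackets), with 95% Clopper-Pearson intervals for counting error. On the left both stress libraries, at 0.721 and 0.654%, lie above both control libraries; on the right the groups overlap.

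Transcripts of dividing cells, Mki67 and Top2a, did not differ between stress and control members beyond the spread of the libraries. With each cell thinned to 3000 UMIs, which left out 3 and 2 stress members, 12.3 and 8% of stress members held a UMI of either gene, against 20 and 0% of control members (exact permutation p = 1). Unthinned, the shares were 21.7 and 14.8% against 30 and 12.5%. In IgA cells the thinned shares were 12.4 and 9.52% in stress, against 15.3 and 6.03% in control.

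The members were then compared with the IgA cells of the same libraries across all genes. The levels given here are normalised CPM, CPM of the summed class after scaling by the trimmed mean of M-values, in the order stress 1, stress 2, control 1, control 2. Of 5087 genes tested by edgeR's quasi-likelihood test with the library as a block, 173 passed at an adjusted p under 0.05 (3.40%), 81 higher in the members (1.59%) and 92 lower (1.81%). Of the 173, 155 went the same way in all 4 libraries. The count varied with the cells and libraries used. It was 64 without members holding 3 or more B cell UMIs, of which 63 were among the 173. That setting left out 36 of the 105 members, and the part of the smaller number of cells was not tested. The count was 91 without stress 1 and 81 without stress 2.

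Slpi, the secretory leukocyte protease inhibitor, had the highest mean level of the 24 genes of largest change. It had 4023, 2512, 4813 and 2982 normalised CPM in the members, against 357, 375, 690.4 and 592 in IgA cells, a log2 difference of 2.85 ± 0.17 (SE; edgeR adjusted p = 3.42e-11). Every member value lay above every IgA value, and the gene passed under all 14 alternatives (2.63 to 2.99). Not all members shared this. Without scaling and over the 4 libraries pooled, Slpi had 4746 CPM in IgG-led members, 199 in Ighm-led members and 398 in IgA cells. In control 1 Ighm-led members had 1241 CPM, from 1 cell. Of the members, 62 held a Slpi UMI and 1 cell gave 20% of them.

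Tmem52, which encodes a membrane protein, had 40.3, 39.0, 33.7 and 79.6 normalised CPM in the members, against 0.246, 0.340, 0.353 and 0 in IgA cells (log2 7.08 ± 0.44, edgeR adjusted p = 3.79e-11). All its UMIs came from 15 members. Cyp4f18, a cytochrome P450 that acts on leukotriene B4, had 117, 197, 95.6 and 36.7 in the members, against 7.88, 8.44, 9.53 and 12 in IgA cells (log2 3.76 ± 0.37, edgeR adjusted p = 0.000438). Oosp1, named for its secretion by oocytes, had 72.5, 113, 90.0 and 116 against 13.2, 12.8, 25.4 and 12.5 (log2 2.66).

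Cd79a and Tnfrsf13c were higher. Cd79a, a signalling chain of the B cell receptor, had 1353, 2085, 1063 and 1133 normalised CPM in the members, against 345, 337, 508 and 334 in IgA cells (log2 1.87 ± 0.21, edgeR adjusted p = 0.000199). Tnfrsf13c, the receptor for the survival factor BAFF, had 63.1, 87.3, 67.5 and 67.4, against 27.4, 18.0, 16.2 and 17.6 (log2 1.80 ± 0.24). Without the members that held 3 or more B cell UMIs both still passed, at 1.76 and 1.40.

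Other named genes were higher too. These were Lgmn, a lysosomal protease (1.67), Pon3, a lactonase (1.71), Socs3, an inhibitor of cytokine receptor signalling (2.44), H2-Ob, a chain of the class II loading modulator H2-O (1.82), and the predicted genes Gm8369 (4.02) and Gm8879 (2.41). H2-Ob did not pass without members holding 3 or more B cell UMIs (1.25, edgeR adjusted p = 0.0806, against 0.00352 with them). It also did not pass without marked doublets. Gm8369 was seen in 45.6% of cells of the T cell gate, and so was not limited to plasma cells.

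Ccr10, the receptor that guides IgA plasma cells to the chemokine CCL28 of the colon epithelium, was lower. It had 43.0, 55.1, 90.0 and 147 normalised CPM in the members, against 249, 247, 258 and 317 in IgA cells (log2 -1.89 ± 0.20, edgeR adjusted p = 1.88e-06). It passed under all 14 alternatives. Of 17 tested homing genes 4 passed, all lower, where 1.81% of all genes were lower. These were Ccr10, Ccr9, the receptor for the small-bowel chemokine CCL25 (-2.17), Klf2, a transcription factor of lymphocyte traffic (-1.27), and Itgb7, the beta 7 chain of the gut-homing integrin (-0.77). The list's median was -0.01, against -0.02 over all genes, and Itga4, the partner of beta 7, had 174, 191, 129 and 159 in the members against 163, 157, 139 and 121 in IgA cells.

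The other lower genes of largest change were Lyz2 (lysozyme, -2.74), Il1b (interleukin 1 beta, -2.49), Hes1 (a target of Notch signalling, -1.95), Atp1b1 (a sodium pump subunit, -1.67), Mt1 (a metallothionein, -1.65), Mxi1 (-1.62), Adgrl2 (-1.54), Grasp (-1.52), Hist1h2bc (a histone, -1.46), Trf (transferrin, -1.45) and Anxa2 (annexin A2, -1.39). Lyz2, a myeloid marker, had 13.4, 9.19, 0 and 0 in the members, against 59.4, 58.2, 101 and 15.5 in IgA cells. It did not pass without marked doublets (-1.32, edgeR adjusted p = 0.291). Socs3, Mxi1, Adgrl2, Grasp, Hist1h2bc, Trf and Anxa2 did not pass without stress 1, and H2-Ob, Mxi1, Hist1h2bc, Trf and Anxa2 not without stress 2. Mxi1, Hist1h2bc and Trf did not pass without control 1, nor Hist1h2bc without control 2. Mxi1, Adgrl2, Hist1h2bc, Trf and Anxa2 also did not pass without members holding 3 or more B cell UMIs. Lyz2, Mt1, Grasp and Trf did not pass without the library block. Under DESeq2 Mxi1, Hist1h2bc and Anxa2 did not pass, and Grasp did not with IgM plus IgG at least 3 times Igha.

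**Figure D3:**
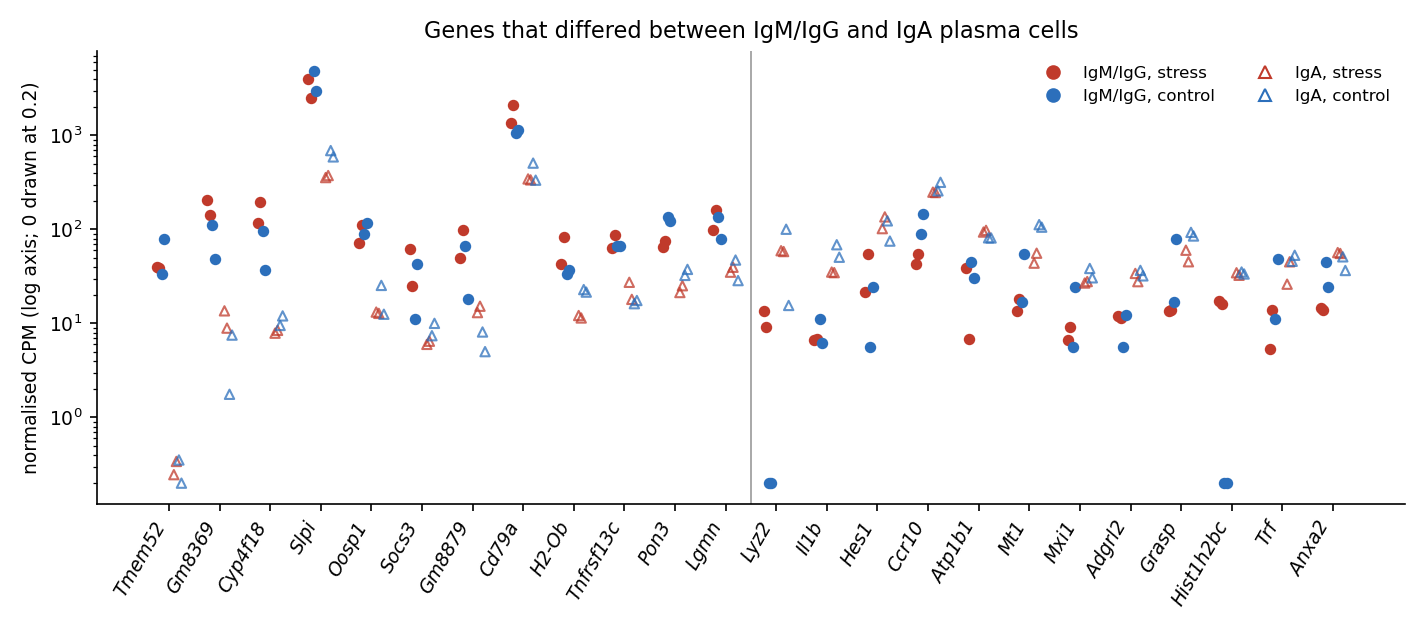
Normalised CPM (log axis, 0 drawn at 0.2) of the 12 genes with the largest increase, left of the line, and of the 12 with the largest decrease in IgM/IgG (filled circles) against IgA plasma cells (open triangles), 1 point per library, red for stress and blue for control. For Slpi every filled circle, from 2512 to 4813, lies above every triangle, and for Ccr10 every filled circle lies below every triangle.

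Survival receptors moved both ways. Of 15 tested genes 2 were higher, Tnfrsf13c and the anti-apoptotic Bcl2l1 (2.02), and 2 lower, Tnfrsf13b, which encodes TACI (-1.12), and Cd28 (-1.37), with a median of -0.05. Over all genes 1.59% were higher and 1.81% lower, which holds also beside each list that follows in this comparison. Tnfrsf13b had 40.3, 59.7, 61.8 and 73.5 normalised CPM in the members, against 119, 122, 117 and 116 in IgA cells. Of 15 plasma cell identity genes Cd79a and Cd38 (1.55) were higher and Sdc1, the surface marker CD138, was lower: 64.4, 142, 118 and 122 against 171, 172, 233 and 242 (-0.89, edgeR adjusted p = 0.00398). Xbp1 did not pass (-0.26, edgeR adjusted p = 0.457).

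Of 28 tested genes of endoplasmic reticulum folding 3 were higher, where 1.59% of all genes were, the proline isomerase Ppib (0.58), the oxidase Ero1lb (1.32) and the ubiquitin ligase Syvn1 (0.68), and none lower, with a median of 0.26. Of 33 genes of translocation and transport, Ssr4 was higher (0.60). Mef2b, a transcription factor of germinal centre B cells, was 1 of 5 tested germinal centre genes to pass (4.01), with 18.8, 45.9, 22.5 and 18.4 in the members against 1.81, 1.5, 3.18 and 0.501 in IgA cells. Of 16 tested cell cycle genes 0 were higher and 1, the tubulin Tuba1b, was lower (-1.26), with a median of -0.43.

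Interferon genes gave Irf7 higher (1.31) and Bst2 lower (-0.88) of 17 tested. Immediate early and heat shock genes gave Btg2 (0.71) and Ier2 (0.64) higher and Fos (-0.88), Fosb (-0.97) and Hspa1a (-1.45) lower of 18. Of 9 tested glucocorticoid genes Zfp36l2 was lower (-0.87) and Nr3c1, the glucocorticoid receptor, did not pass (-0.96, edgeR adjusted p = 0.109). Of 14 genes of the integrated stress response and of 4 cytokine and regulatory genes, 0 passed in either direction, and of 19 genes of glycolysis and respiration Ndufa4 was lower (-0.83). Among markers of other cells, Gzma was lower (-2.93), with 8.05, 2.30, 0 and 0 in the members against 39.4, 38.3, 21.2 and 13.5 in IgA cells.

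The members varied among themselves, and several of the genes that differed from IgA cells varied with the heavy-chain gene. These within-class values were chosen after the comparison with IgA had been seen. They are CPM, without that scaling, of all cells with 1 leading gene in 1 library, in the same library order. Over 4 libraries the exact paired permutation test cannot give a p below 0.125, so single genes cannot pass. Of 39 genes compared between IgM-led and IgG-led members, 10 went 1 way in all 4 libraries, and the lowest Benjamini-Hochberg adjusted exact p was 0.487.

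Slpi was higher in the IgG cells. It had 6315, 2785, 5459.7 and 3947 CPM in IgG-led members, against 80.8, 231, 1241 and 42.9 in IgM-led members, higher in IgG cells in 4 of 4 libraries. Prg2, the major basic protein best known from eosinophil granules, had 1283, 777, 454 and 358 in IgG-led members, against 12.4, 26.6, 0 and 150.1 in IgM-led members. Cd79b and Itgb7 were also higher in IgG cells in 4 of 4 libraries. Sdc1, Tnfrsf13b, Xbp1 and Grasp were higher in IgM cells in 4 of 4, Xbp1 by little: 1112, 1048, 1333 and 1287 in IgM-led members against 1081, 939, 1205 and 1090.5 in IgG-led members.

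Within the IgG cells, 14 genes were set side by side in IgG2b and IgG1 cells (lowest Benjamini-Hochberg adjusted exact p 0.194). Tmem52 had UMIs in 15 of 53 Ighg2b-led cells and in 0 of 12 Ighg1-led, 0 of 12 Ighg2c-led and 0 of 27 Ighm-led cells, against 9 of 1868 IgA cells. Over the 4 libraries pooled, counting error alone allows shares of cells with a UMI of up to 26.5% in Ighg1-led and Ighg2c-led cells and up to 12.8% in Ighm-led cells (upper Clopper-Pearson limits), which limits detection at these depths and not expression. Prg2 had 1689.6, 1094, 609.7 and 2563 CPM in Ighg2b-led cells, against 30.3, 34.3, 107 and 45.9 in Ighg1-led cells. Cd79a had 2160.3, 2702, 1067 and 9265 in Ighg2b-led cells, against 333, 149, 277 and 241 in Ighg1-led cells. Cyp4f18, Gm8369, Tnfrsf13c, Lgmn and Mef2b were likewise higher in Ighg2b-led cells in 4 of 4 libraries. All these values rest on 32, 15, 5 and 1 Ighg2b-led cells and on only 5, 2, 2 and 3 Ighg1-led cells. The 2 Ighg1-led cells of control 1 shared their pair of V segments.

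Ccr10 ran the other way. It had 9.80, 7.46, 9.53 and 0 CPM in Ighg2b-led cells, against 106, 91.4, 299 and 172 in Ighg1-led cells. The Ighg1 value of control 2 came from 1 cell, with 15 Ccr10 UMIs and 4500 Igha beside 4624 Ighg1 UMIs. In stress 1 an Ighg1-led cell with 1855 Igha UMIs held 4 Ccr10 UMIs. Ighm-led cells of stress 1 with 1635 and 1046 Igha UMIs held 10 and 3. Ighg2b-led cells held at most 40 Igha UMIs. The part of cells with much Igha in this contrast was not tested. A Ccr10 UMI was found in 5 of 53 Ighg2b-led, 8 of 12 Ighg1-led, 3 of 12 Ighg2c-led and 7 of 27 Ighm-led cells, against 83.8% of IgA cells. In the T cell gate the share was 5.40%. Median depths were 10331 UMIs in Ighg2b-led, 22722 in Ighg1-led, 10586 in Ighm-led and 14546.5 in IgA cells, and 3489 in the T cell gate. Depth ranged from 744 to 49194 UMIs in Ighg2b-led and from 3873 to 31965 in Ighm-led cells.

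The share of cells with a Slpi UMI was 35 of 53 in Ighg2b-led, 10 of 12 in Ighg1-led, 9 of 12 in Ighg2c-led and 7 of 27 in Ighm-led cells, against 64.9% of IgA cells and 5.68% of the T cell gate. Over all IgG cells the share was 70.5%. Prg2 was found in 36 of 53, 7 of 12, 5 of 12 and 7 of 27 of these cells in the same order, against 28.7% of IgA cells, and Cyp4f18 in 38 of 53, 4 of 12, 5 of 12 and 10 of 27, against 9.48%.

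**Figure D4:**
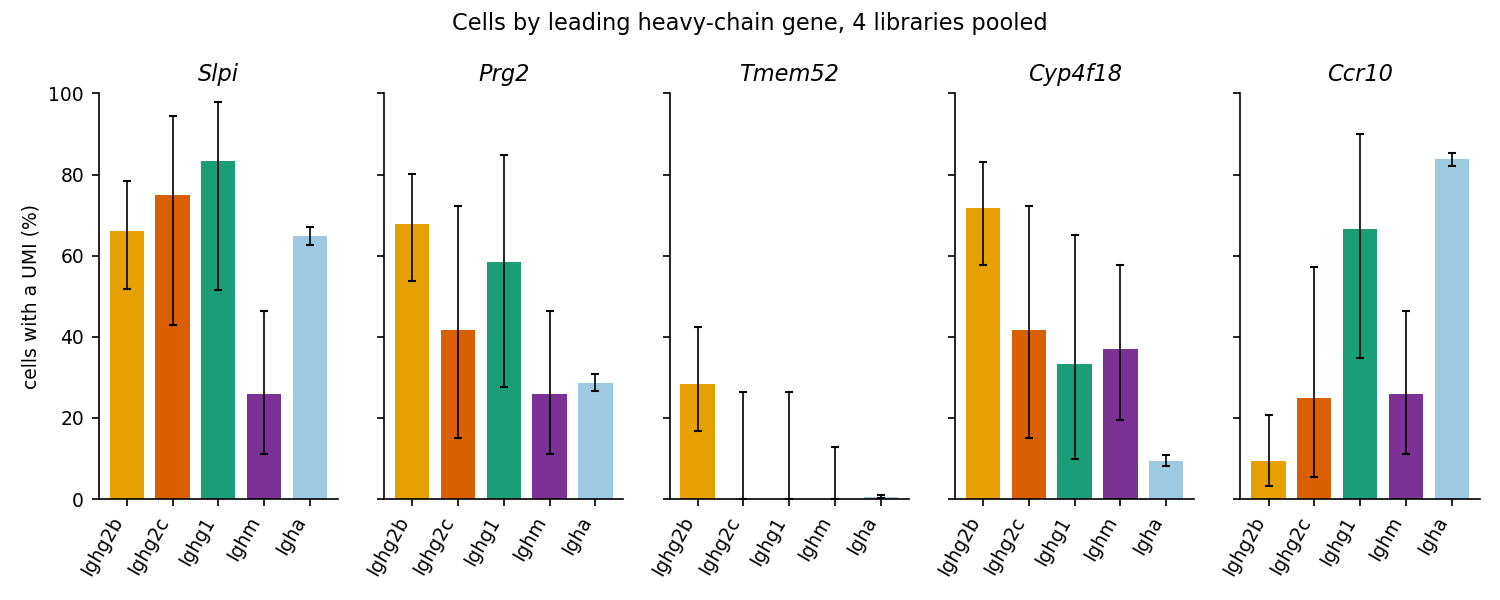
Share (%) of cells with at least 1 UMI of each gene, by the leading heavy-chain gene of the cell, with the 4 libraries pooled and 95% Clopper-Pearson intervals for counting error. Tmem52 appears in Ighg2b-led cells (15 of 53) and in 0 of the other IgG and IgM cells shown; Ccr10 is lowest in Ighg2b-led cells (5 of 53) and highest in Igha-led cells (83.8%).

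Stress and control members were compared next. Control 2 held 8 members, under the 10 set as the least for a fit, so the fit within members was added after the data were seen. It tested 1902 genes, and 12 passed (0.631%), 9 higher in stress (0.473%) and 3 lower (0.158%), by edgeR's quasi-likelihood test at an adjusted p under 0.05. Of the 1902 genes, 406 (21.3%) had both stress libraries above both control libraries and 372 (19.6%) had both below. The count was 2 without members holding 3 or more B cell UMIs, and between 14 and 40 with 1 library left out.

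Genes of antigen presentation by MHC class II were among those higher in stress members. These molecules show peptides to CD4 T cells and are abundant in B cells and lower in mature plasma cells. H2-Ab1, the I-A beta chain, had 840.2 and 987 normalised CPM in stress members, against 326 and 263 in control members (log2 1.61 ± 0.28, edgeR adjusted p = 0.0173). H2-Aa, the I-A alpha chain, had 455 and 539.6 against 152 and 61.2 (2.19 ± 0.38), and H2-Eb1, the I-E beta chain, had 493 and 641 against 231 and 153 (1.53 ± 0.31). Of 7 tested class II genes these 3 passed, where 0.473% of all genes were higher, with a median of 1.11 against -0.01 over all genes. Without control 1 or control 2 H2-Ab1 did not pass, nor did H2-Eb1 without control 2 or under DESeq2. The invariant chain Cd74 had 2229 and 2935 in stress members, against 2125 and 1916 in control members, and did not pass (0.33, edgeR adjusted p = 0.796).

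At equal depth, 3000 UMIs a cell, stress members held means of 17.8 and 15.3 UMIs of Cd74, H2-Aa, H2-Ab1 and H2-Eb1 together, against 11.3 and 6.25 in control members. IgA cells held 5.32 and 5.17 in stress, against 9.42 and 7.19 in control, and the T cell gate 9.07 and 2.25 against 6.71 and 3.63.

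The difference between the effects was tested itself. Stress minus control in members was set against stress minus control in IgA cells in 1 fit of 8 sums, in which 17 of 5087 genes passed (0.334%), 16 with the larger effect in members (0.315%) and 1 with the smaller (0.0197%). H2-Ab1 had 289 and 219.7 normalised CPM in stress IgA cells, against 355 and 431 in control IgA cells, and the effects differed by 2.26 ± 0.29 (log2, edgeR adjusted p = 2.41e-07). For H2-Eb1 the difference was 2.32 ± 0.30 (7.02e-07 by the same edgeR test) and for H2-Aa 3.39 ± 0.44 (0.00577). All 9 tested class II genes had a positive difference, as 55.8% of all genes did. These 3 passed, where 0.315% of all genes did in that direction, with a median of 1.68 against 0.10 over all genes.

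B cell transcripts moved with this result. Members with 3 or more UMIs of 7 B cell genes were 22 of 60 and 13 of 27 in the stress libraries, against 1 of 10 and 0 of 8 in the control libraries (36.7 and 48.1% against 10 and 0%, exact permutation p = 0.333). The shares in IgA cells were 7.29 and 4.85% against 1.60 and 6.03%. At 3000 UMIs a cell, 49.1 and 40.0% of stress members held any such UMI, against 10 and 0% of control members, and in the T cell gate 19.1 and 8.62% against 5.33 and 8.18%. Summed over 16 B cell markers, none at 0 over all members, the level was 1015 and 679 CPM in stress members, against 622 and 354 in control members. Beyond the fits without those members, their part in the stress results was not tested.

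Without those members H2-Ab1 and H2-Eb1 kept a difference of effects past the threshold, at 1.98 (edgeR adjusted p = 0.000401) and 1.96 (0.000652), while H2-Aa did not pass (3.03, 0.0704), as it did not without marked doublets (4.17, 0.585). Within members alone the 3 genes then no longer passed: H2-Ab1 had 1.34 (edgeR adjusted p = 0.0861), H2-Aa 1.87 (0.0651) and H2-Eb1 1.19 (0.185).

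The B cell transcripts were most frequent in the IgG2 cells. Of Ighg2b-led members 25 of 53 held 3 or more such UMIs, of Ighg2c-led 5 of 12, of Ighm-led 5 of 27 and of Ighg1-led 1 of 12. H2-Ab1 had 1056 and 1053 CPM in Ighg2b-led stress cells, against 276 and 986 in Ighg2b-led control cells, the last from 1 cell. In Ighm-led cells it had 677 and 1101 in stress, against 414 and 257 in control. In Ighg1-led cells it had 227 and 217 in stress, against 427 and 161 in control, so the groups overlapped there.

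**Figure D5:**
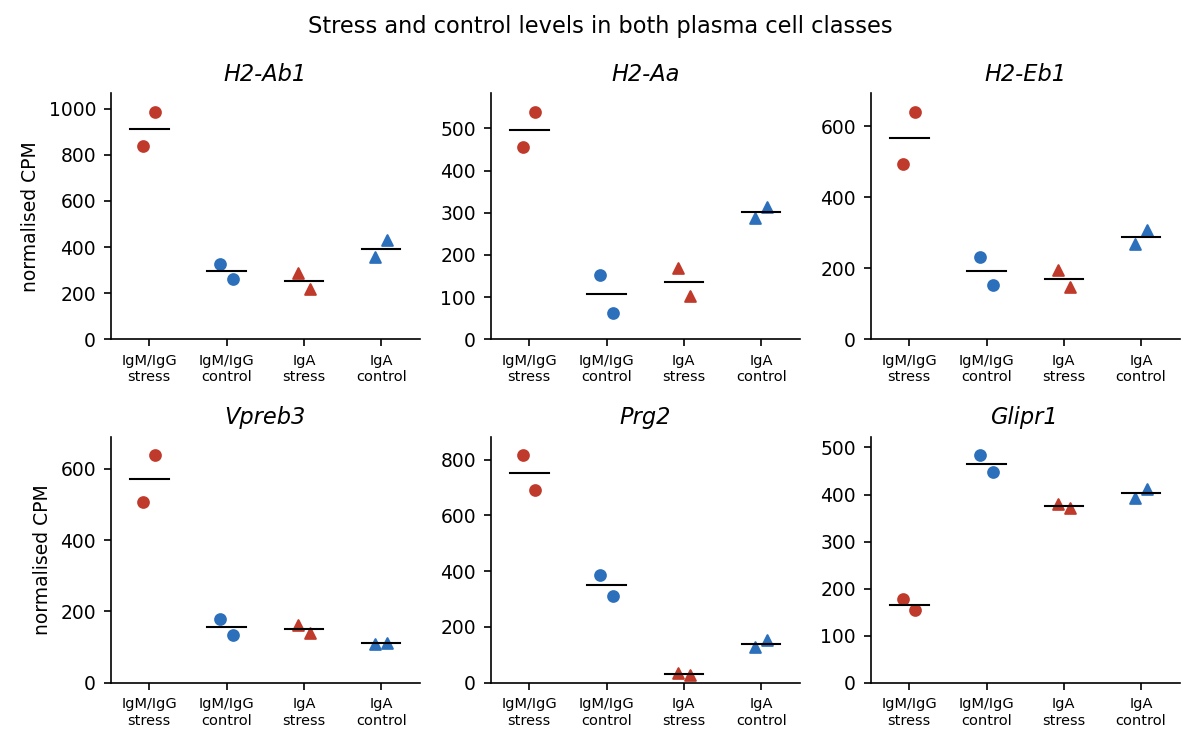
Normalised CPM of 6 genes in IgM/IgG (circles) and IgA plasma cells (triangles), stress red and control blue, 1 point per library and the mean as a line. H2-Ab1 lies at 840.2 and 987 in stress members against 326 and 263 in control members, and at 289 and 219.7 against 355 and 431 in IgA cells; Glipr1 lies at 179 and 154 in stress members against 484 and 447 in control members.

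Other genes were higher in stress members. Vpreb3, a chaperone of immunoglobulin chains in the B lineage, had 506 and 638 normalised CPM in stress members, against 179.9 and 135 in control members (log2 1.83 ± 0.31, edgeR adjusted p = 0.0173), and 1.93 without members holding 3 or more B cell UMIs (edgeR adjusted p = 0.0450). Ms4a1 had 161 and 122 against 45.0 and 12.2 (2.27). Sbno2 had 69.8 and 66.6 against 0 and 6.12, and Rgs2, a regulator of G protein signalling, 68.5 and 55.1 against 5.62 and 0. The groups did not overlap in these 4 genes, which were chosen by smallest p, as in 21.3% of all tested genes in that direction. Sbno2 did not pass without stress 1 or without stress 2, Rgs2 not without stress 2, and Vpreb3 and Ms4a1 not without control 2. Under DESeq2 Sbno2, Rgs2 and Ms4a1 did not pass, nor did Ms4a1 with up to 25% mitochondrial UMIs.

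Iglc1, a lambda constant gene, had 20276 and 27897 normalised CPM in stress members, against 1068 and 882 in control members (log2 4.60 ± 0.45, edgeR adjusted p = 0.000122). The 9 lambda-led members were all in the stress libraries, 100 of 105 members held an Iglc1 UMI, and 1 member held 23.6% of them. Lambda-led members held 2231 to 26276 UMIs of the lambda constant genes each, and kappa-led members 1 to 271 (median 29). In the Ighm-led cells of stress 1 Iglc1 had 1118 CPM without scaling, against 1977 and 1372 in those of the control libraries. Ighv1-64 with Iglv1 occurred in 2 lambda-led cells of stress 1, and Ighv6-6 with Iglv1 in 2 of stress 2. The other lambda constant genes did not separate the groups. Without scaling, Iglc2 had 1061 and 82385 CPM in stress members, against 2057 and 2737 in control members, and Iglc3 had 355 and 2205 against 697 and 714, so stress 1 lay below both control libraries for each. Without members holding 3 or more B cell UMIs it did not pass (3.86, edgeR adjusted p = 0.750).

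Lower in stress members were Glipr1, Lmna and the segment Ighv1-85, which rests on 26 UMIs in 3 control members, 42.3% of them from 1 cell. Glipr1 had 179 and 154 normalised CPM in stress members, against 484 and 447 in control members (log2 -1.49 ± 0.29, edgeR adjusted p = 0.0350). In IgA cells it had 381 and 372 in stress, against 392 and 412 in control, and the effects differed by -1.39 ± 0.27 (edgeR adjusted p = 0.00209). Lmna, a nuclear lamin, had 47.0 and 25.3 in stress members, against 146 and 129 in control members (-1.86 ± 0.38, edgeR adjusted p = 0.0407). Neither passed without members holding 3 or more B cell UMIs (edgeR adjusted p of 0.102 for Glipr1 and 0.395 for Lmna). Neither passed without stress 2 or under DESeq2.

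Prg2 and Iglc1 had the smallest p of the difference of effects, and Iglc1 did not pass without members holding 3 or more B cell UMIs (3.16, edgeR adjusted p = 0.967, against 4.93 with them). Prg2 had 816 and 691 normalised CPM in stress members, against 388 and 312 in control members, and 33.6 and 27.4 in stress IgA cells, against 128 and 152 in control IgA cells (difference of effects 3.30 ± 0.27, edgeR adjusted p = 1.87e-14). It passed under all 13 alternatives. The control level rests largely on 1 Ighg2b-led cell per library. In control 1 that cell held 52 Prg2 UMIs and the next highest 9. In control 2 it held 39 and the next highest 4. No alternative left out these cells alone. Ighg2b-led cells, where Prg2 is high, made 54.4 ± 1.57% of stress members and 31.2 ± 26.5% of control members (SD, n = 2 each), and their part in the contrast was not tested.

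No list of secretory or stress-response genes passed in stress against control members. Of 28 tested folding genes 0 passed in either direction, with 22 positive, where 49.3% of all genes were, and a median of 0.41 against -0.01 over all genes. Hspa5, the chaperone BiP, had 1918 and 2765 normalised CPM in stress members, against 1406 and 1243 in control members (0.80, edgeR adjusted p = 0.428), Calr, the lectin chaperone calreticulin, 1101 and 1855 against 697 and 753 (1.00, 0.260) and Manf, an unfolded protein response factor, 995 and 1669 against 675 and 612 (1.02, 0.209). The groups did not overlap in these 3 genes, as in 21.3% of all genes in that direction. Of 33 secretion, 11 integrated stress response, 4 glucocorticoid, 14 immediate early, 10 homing, 8 survival and 14 plasma cell identity genes, 0 passed by edgeR, with 182 of all 1902 genes at an unadjusted p under 0.05. Ccr10 had 43.0 and 55.1 in stress members, against 90.0 and 147 in control members, and did not pass (-1.30, edgeR adjusted p = 0.209).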

How the data were processed

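UMI counts per gene and barcode (31053 genes) were deposited by the authors as 1 matrix per library, unnormalised. Cell Ranger (5 and 5.0) and mm10 are named per the submitters' processing notes, and software 3.1.0 per the file headers. The annotation release and the 10x kit are not given in the sources used here. Total counts per library were 37010518 and 39074920 UMIs in stress and 13806189 and 21465320 in control. The members and gene lists were chosen with earlier results of these data known.

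Counts were summed per library and class, and rounding was not needed. The sums went into edgeR's robust quasi-likelihood test, with TMM scaling, filterByExpr and Benjamini-Hochberg adjustment over all tested genes (edgeR 4.0.16, limma 3.58.1, R 4.3.3). Genes of the membership rule were left out of calls. DESeq2 1.42.0 was an alternative. Named genes were, with mean CPM of at least 20, the 12 of largest change per direction among those that passed and kept 1 sign in 4 libraries (class comparison), the 10 per direction (stress) and 5 (difference of effects) with the smallest p, and per list the most abundant and those that passed. Other genes that passed and are named were chosen after their values were seen. Doublets were scored with Scrublet in scanpy 1.11.5 at an expected rate that grew with the number of barcodes, and the 15 members marked were kept. Thinning used seed 1. The fits were tested on simulated data. Other steps used scipy 1.17.1, numpy 2.4.6, pandas 2.3.3 and matplotlib 3.10.9 under Python 3.11.15. Coordinates are from GENCODE vM21 on GRCm38, the assembly of mm10, and 35 symbols belong to several gene identifiers.

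Alternatives were DESeq2, DESeq2-type size factors, no filter on low counts, totals without immunoglobulin genes, up to 25% mitochondrial UMIs, no marked doublets, IgM plus IgG at least 3 times Igha, no members with 3 or more B cell UMIs, the library block taken out or put in, and each library left out. Leaving cells with 3 or more B cell UMIs out of both classes was added after seeing the data. Some genes are not reported here.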

Additional observations from a re-analysis of the deposited data

Results flagged for a closer look

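The effect of stress differed between members and IgA plasma cells in 14 genes outside the variable segments, by edgeR's test of the difference itself (log2 difference of effects, members minus IgA cells). Prg2 (3.30), H2-Ab1 (2.26), H2-Eb1 (2.32), H2-Aa (3.39), Vpreb3 (1.42), Iglc1 (4.93) and Glipr1 (-1.39) are described above. Prg2, H2-Ab1 and H2-Eb1 passed under all 13 alternatives. Without members holding 3 or more B cell UMIs, and likewise without such cells in both classes, Iglc1, Vpreb3, Glipr1, Ifi27l2a, Rgs2, Arl5c, Btg1 and Cd83 did not pass, Iglc1 at 3.16 and 3.15 and Ifi27l2a at 0.61 and 0.62.

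The interferon-inducible Ifi27l2a differed by 1.52, with 229.5 and 315 normalised CPM in stress members against 124 and 116 in control members, and 72.8 and 71.4 in stress IgA cells against 109 and 76.2 in control IgA cells. Rgs2 differed by 4.45 and Sbno2 by 4.34, and in IgA cells Rgs2 had 12.4 and 11.4 in stress against 12.3 and 12.5 in control. Btg1, an inhibitor of proliferation, differed by 2.45, with 79.2 and 52.8 in stress members against 16.9 and 12.2 in control members, while IgA cells had 62.1 and 42.0 in stress against 61.7 and 65.2 in control. Arl5c differed by 2.62, with 83.2 and 39.0 in stress members against 16.9 and 18.4 in control members. Cd83, a surface protein of activated B cells and dendritic cells, differed by 2.20 and Fcer1g, the common gamma chain of Fc receptors, by 3.16. Fcer1g rests on UMIs of 9 members. Cd83 and Fcer1g passed under 4 of 13 alternatives each, Arl5c under 5, Btg1 under 7, Rgs2 and Ifi27l2a under 8 and Sbno2 under 10. Without 1 of the control libraries Vpreb3, Rgs2, Sbno2, Arl5c, Btg1 and Fcer1g did not pass, whichever of both it was, and Glipr1, Ifi27l2a and Cd83 did not pass without control 1.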

How the results depend on the processing

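Differences in shares could change sign: the share of plasma cells (-0.692 percentage points) was 0.194 without stress replicate 2, and that of dividing members (0.140) was -3.01 without thinning and -9.86 to 10.1 with 1 library left out. The genes named for largest change or smallest p kept their sign under every alternative. For IgM/IgG against IgA (173 genes passed) the count was 108 with DESeq2, 365 without a filter on low counts, 64 without members holding 3 or more B cell UMIs, 67 without such cells in both classes, and 81 to 212 with 1 library left out. No replicate block gave 130, of which 118 were shared. For stress against control within members (12) it was 5 with DESeq2, 37 without a filter, 27 without marked doublets, 2 without members holding 3 or more B cell UMIs, and 14 to 40 with 1 library left out. With 1 control library left, the fit assumes that it varies like the other group. For the difference of effects (17) it was 8, 34, 8 and 9 under DESeq2, no filter and the 2 settings on B cell UMIs, and 11 to 31 with 1 library left out. The replicate block within members gave 25. Replicate numbers share only a number: deviations of same-numbered libraries correlated at 0.0724, a single value, since centring 2 libraries a group fixes both pairs alike. Without members holding 3 or more B cell UMIs the difference in the share of kept cells was 0.148 percentage points (0.418 with them) and in the share of plasma cells -2.49. The lambda-led difference was 13.6 percentage points, and 5 to 22.2 with 1 library left out. The cause of these changes was not tested. The 10 and 8 control members limit the depth on that side to 173589 and 169522 UMIs.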
